A study of Mus musculus with 3 samples.

Results

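The genes described here are 45 genes of DNA replication and S phase, taken by gene symbol: factors that license origins, the MCM helicase and its activators, the sliding clamp and its loader, the DNA polymerases, the enzymes of the lagging strand, the enzymes of deoxynucleotide supply, and factors of chromatin assembly, maintenance methylation and fork protection. They were 45 of the 23282 gene rows measured, and all 45 passed the filter on low values that kept 12770 rows for testing. RNA was measured in CD4 T cells of C57BL/6 mice (C57BL/6J in the methods of the study, females of 6 to 8 weeks), sorted from spleen and lymph nodes, in which CD3 and CD28 were engaged with antibodies at 2 µg/ml for 72 h in every group. The 3 media were complete medium (CM, RPMI-1640 with 10% FBS), dialyzed medium (DM, a base without amino acids with dialyzed serum) and DM to which 30 µM methionine was added (DM+Met). By the study's account DM itself was not free of methionine. No unstimulated group was analysed here. Each medium is 1 labelled sample with 2 numbered files, and by the study's account the 2 samples of a medium are independent, so the 2 files were treated as replicate libraries. Nothing in the labels says that they came from separate animals or cultures, and the p-values measure only the spread between these libraries.

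DNA replication starts at origins that are licensed in G1, when ORC, CDC6 and CDT1 load the MCM ring onto DNA. In S phase, CDC45 and GINS join the MCM ring to form the active CMG helicase, and polymerases, clamp and ligase copy both strands. In a naive T cell many of these genes are barely transcribed, and engagement of the T cell receptor induces them through E2F transcription factors before the cells divide. Genes of the G2 and M phases are transcribed later, largely through CCAAT boxes and a promoter element called the cell cycle genes homology region (CHR).

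Total reads recovered from the deposited values ranged from 8504742 to 12377285 per library. The libraries of each medium differed by more than sampling noise (chi-square per degree of freedom 19.0 for CM, 35.9 for DM, 18.2 for DM+Met), so no pair was the same reads listed again, which does not show whether the files came from separate cultures. The ribosomal RNA row Rn45s took 32.9% and 31.04% of the reads of CM libraries, 37.2% and 38.3% of DM reads, with 15.5% and 20.1% for DM+Met. Levels are given as CPM, reads relative to a common library size as scaled by the authors. The T cell markers Cd3d and Cd4 had at least 3704 and 1584 reads in every library. The summed level of 7 T cell markers was 1566 and 1691 CPM in CM, 2261 and 2147 in DM, 2300.4 and 2305 in DM+Met. In DM, 3 of 7 were called higher (background 7.80% of all tested rows). Markers of other cells were low in each library, at 33.8 to 79.3 CPM for 6 CD8 T and NK cell markers, 57.6 to 95.3 CPM for 6 B cell markers (Pax5 had 0 reads in all 6 libraries) and 19.98 to 64.8 CPM for 8 myeloid markers. Against CM, Cd8a was called lower in both dialyzed media, Lyz2 higher in DM, Klrb1c higher in DM+Met and Cd22 lower in DM+Met. The part of these cells in the results below was not tested. In bulk RNA, fewer cells in S phase and less RNA of these genes per cell cannot be told apart.

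Promoter windows of the members were searched for words that E2F is known to bind and were read from RefSeq (assembly GRCm38.p6), from 250 bases before to 50 bases after each annotated start. Windows were found for 37 of the 45 members. An E2F word (TTTCCCGC, TTTGCCGC, TTTGGCGC or TTTCGCGC, on either strand, where words may overlap each other) stood in 16 of the 37 member genes (43.2%), against 3.29% of 17492 protein-coding genes with windows of the same length. A CCAAT box (CCAAT, either strand) stood in 64.9% of the members and 42.3% of protein-coding genes. A CHR word (TTTGAA or TTCGAA, either strand) stood in 21.6% of the members and 20.2% of protein-coding genes. In 21 genes of a G2/M list the shares were 4.76% for E2F words, 90.5% for CCAAT and 81.0% for CHR words. The 23 E2F words of the members had their first base between 219 bases before and 40 bases after the start. These matches describe letters and not occupied sites.

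**Figure D1:**
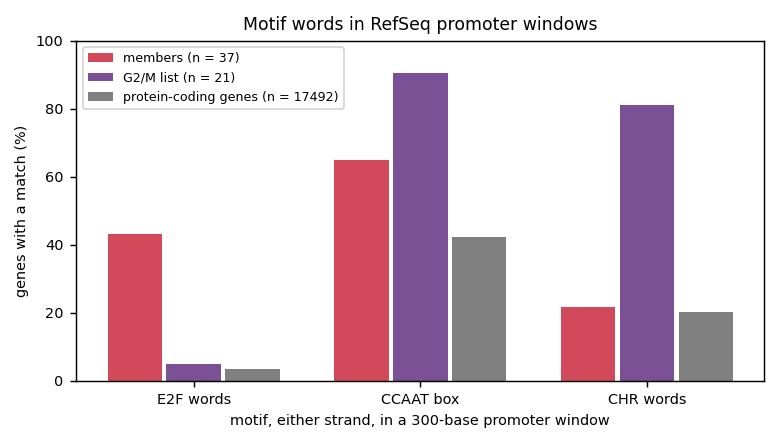
Share of genes (%, vertical axis) whose 300-base RefSeq promoter window holds an E2F word, a CCAAT box or a CHR word on either strand, for 37 replication and S-phase genes (red), 21 G2/M genes (purple) and 17492 protein-coding genes (grey). E2F words stood in 43.2% of the replication and S-phase genes and 3.29% of protein-coding genes, while CHR words stood in 81.0% of the G2/M genes and 21.6% of the replication and S-phase genes.

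The windows printed here are those of the 4 members with the greatest decrease in DM among members that hold an E2F word, with E2F words in capitals on the strand of the gene. They are Clspn (chr4:126556730-126557029, plus strand), Mcm3 (chr1:20820263-20820562, minus strand), Cdc6 (chr11:98907901-98908200, plus strand) and Lig1 (chr7:13278576-13278875, plus strand, 1 of 3 annotated windows). Mcm3 held 2 such words and the other 3 genes held 1 each.
Clspn: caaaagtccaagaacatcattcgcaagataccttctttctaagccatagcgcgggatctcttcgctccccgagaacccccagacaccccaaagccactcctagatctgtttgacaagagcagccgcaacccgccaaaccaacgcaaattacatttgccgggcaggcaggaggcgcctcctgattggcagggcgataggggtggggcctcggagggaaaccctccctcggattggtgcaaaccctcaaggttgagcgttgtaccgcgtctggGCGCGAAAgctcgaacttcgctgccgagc
Mcm3: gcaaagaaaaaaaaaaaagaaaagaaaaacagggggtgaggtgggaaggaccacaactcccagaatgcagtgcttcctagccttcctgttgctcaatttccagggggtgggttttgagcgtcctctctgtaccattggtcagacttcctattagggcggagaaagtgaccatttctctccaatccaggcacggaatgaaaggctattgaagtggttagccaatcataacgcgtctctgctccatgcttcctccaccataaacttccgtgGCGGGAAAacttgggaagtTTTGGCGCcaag
Cdc6: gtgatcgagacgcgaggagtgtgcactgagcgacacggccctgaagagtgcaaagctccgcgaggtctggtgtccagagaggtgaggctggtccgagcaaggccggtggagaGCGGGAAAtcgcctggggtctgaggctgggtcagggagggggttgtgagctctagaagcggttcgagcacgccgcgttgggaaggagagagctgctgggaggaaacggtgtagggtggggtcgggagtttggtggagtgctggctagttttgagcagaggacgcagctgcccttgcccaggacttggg
Lig1: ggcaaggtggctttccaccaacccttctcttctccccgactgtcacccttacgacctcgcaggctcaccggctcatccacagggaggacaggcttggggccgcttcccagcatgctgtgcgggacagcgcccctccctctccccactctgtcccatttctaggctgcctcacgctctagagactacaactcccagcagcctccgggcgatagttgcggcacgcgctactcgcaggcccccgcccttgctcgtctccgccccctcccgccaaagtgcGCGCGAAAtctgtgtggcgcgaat

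In DM, 29 of the 45 members were called lower than in CM (64.4%; background 9.07% of all tested rows called lower) and 1, Gins4, was called higher (2.22%; background 7.80%), by limma with Benjamini-Hochberg adjustment over all 12770 rows at a threshold of 0.05. Both DM libraries lay below both CM libraries for 39 members (86.7%; background 26.2%). The median log2 change of the members was −1.26, against 0.07 over all tested rows. The summed level of the members was 3174 and 3122 CPM in CM and 1336 and 1313 in DM, a mean 2.38-fold lower. In all, 22 members were lower than CM in both dialyzed media, 7 only in DM and 1 only in DM+Met, which are counts of calls and no test between the media. The standard error of a member's log2 change ranged from 0.18 to 0.73. Each count of calls rested on all 6 libraries: 5 members were called lower without CM library 1, 10 without CM library 2, 10 without DM library 1, 11 without DM library 2, 10 without DM+Met library 1 and 11 without DM+Met library 2. Lig1, Mcm6 and Rrm2 were called under every left-out library and every other alternative. The change of 40 members was negative whichever library was left out.

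**Figure D2:**
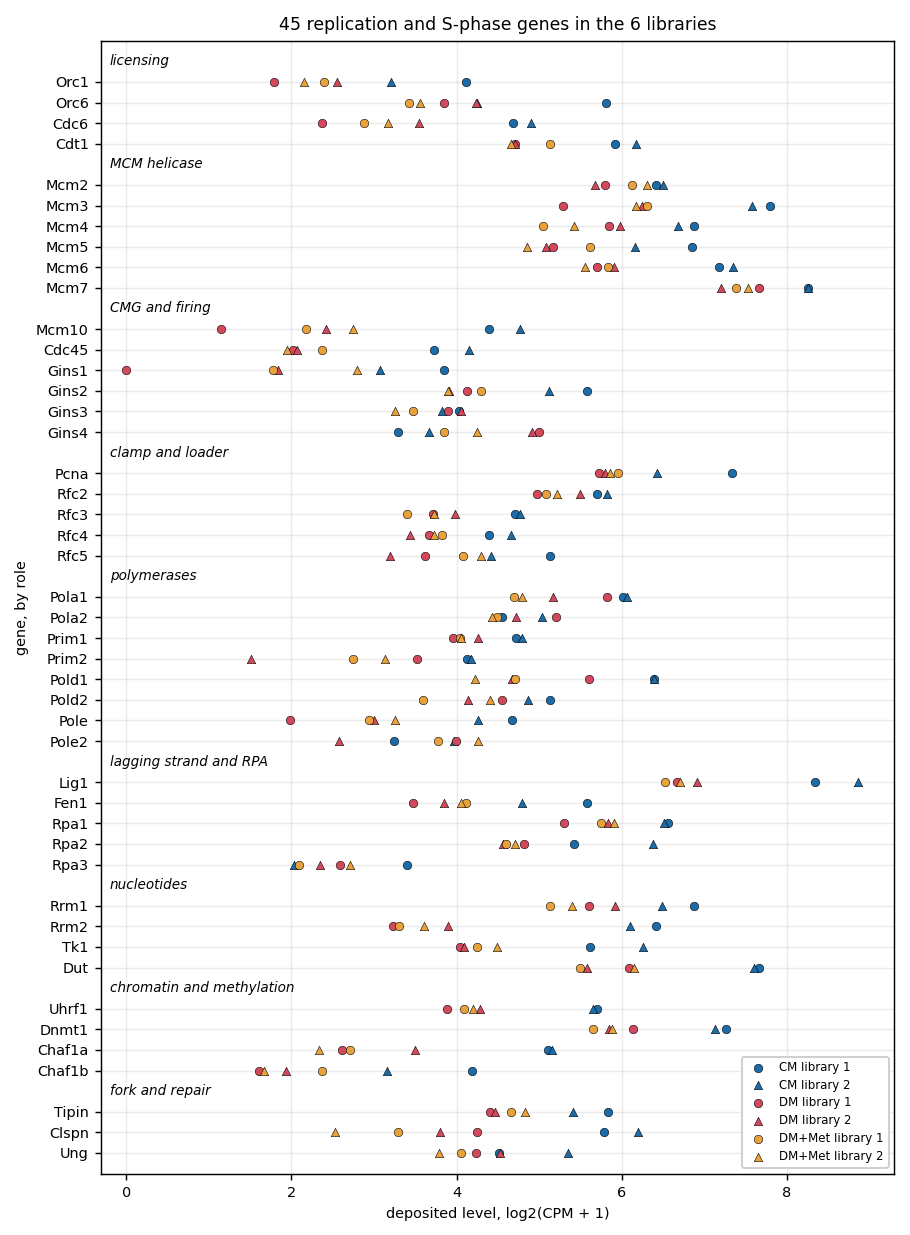
Deposited level of each of the 45 genes (horizontal axis, log2(CPM + 1)) in the 6 libraries, grouped by role (vertical axis), with 1 point per library: CM blue, DM red, DM+Met orange, circles for library 1 and triangles for library 2. For 39 genes both DM points lie left of both CM points (background 26.2% of all tested rows). Gins4 lies the other way, and Gins1 in DM library 1 sits at 0.

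Among the licensing factors, 2 of 4 were called lower in DM (background 9.07% of all tested rows). Cdc6, which recruits CDT1 and the MCM ring to origins, stood at 24.7 and 28.9 CPM in the CM libraries, 4.18 and 10.7 in DM, with 6.37 and 7.98 in DM+Met. It fell by 1.83 on the log2 scale in DM (SE 0.50, adjusted p = 0.0320) and by 1.77 in DM+Met (adjusted p = 0.0395). No library of the dialyzed media reached a CM library (backgrounds 26.2% of all tested rows in DM and 28.7% in DM+Met). Cdt1, its partner in loading MCM, stood at 59.3 and 71.4 CPM in CM, 25.1 and 25.2 in DM, with 34.0 and 24.2 in DM+Met, and was called lower in both media. Orc1 and Orc6, subunits of the origin recognition complex, were not called. Orc1 read 16.3 and 8.20 CPM in CM against 2.45 and 4.86 in DM (log2 change −1.49 with SE 0.57, adjusted p = 0.104). Orc6 read 55.1 and 17.9 CPM in CM, so that its CM libraries lay far apart, with 13.4 and 17.8 for DM and 9.72 and 10.8 for DM+Met. The DM values of both genes lay below both CM values (background 26.2% of all tested rows), for Orc6 only at 17.8 against 17.9 CPM.

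All 6 subunits of the MCM ring, which unwinds the parental strands, were called lower in DM (background 9.07% of all tested rows). Their log2 changes ran from −1.92 to −0.73. Mcm3 stood at 221 and 189 CPM in CM, 38.0 and 74.8 in DM, with 78.1 and 71.2 in DM+Met. It was 3.63-fold lower in mean CPM in DM (log2 change −1.92, SE 0.28, adjusted p = 0.00245), although the DM libraries themselves differed. Mcm6 read 144 and 161 CPM in CM, 51.1 and 59.2 in DM, with 56.0 and 46.1 in DM+Met, a tight fall in both dialyzed media (log2 change −1.45 and −1.56). Mcm2 changed least, from 84.5 and 89.8 CPM in CM to 54.4 and 50.2 in DM (log2 change −0.73, SE 0.20, adjusted p = 0.0345). With methionine, Mcm2 read 68.7 and 78.3 CPM, below both CM libraries (background 28.7% of all tested rows) and above both DM libraries (background 20.4%). Its change from DM to DM+Met was not called (adjusted p = 0.476). Mcm2 was the only ring subunit not called against CM in DM+Met (log2 change −0.24, adjusted p = 0.455, and 0.15 when libraries were scaled to their total reads). Mcm7, with the smallest fitted SE of the 45 (0.18), fell by 0.83 in DM. The gene body of Mcm7 holds Mir25 and Mir93, and Cops6 overlaps its end on the other strand.

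The activators of the helicase moved in different directions. Mcm10, which helps the assembled helicase start unwinding, stood at 19.9 and 26.2 CPM in CM and 1.22 and 4.33 in DM, 8.32-fold lower in mean CPM, the greatest decrease of the 45 on the log2 scale (−2.79, SE 0.58, adjusted p = 0.0113). In DM+Met it read 3.52 and 5.71 CPM and was also called lower. Cdc45, the CMG subunit that joins the ring at firing, read 12.2 and 16.8 CPM in CM, 3.06 and 3.18 in DM, with 4.19 and 2.86 in DM+Met. It fell by 1.89 in DM (SE 0.52, adjusted p = 0.0347). The 4 genes of GINS, a complex of 1 copy of each subunit, did not move together. Gins1 read 13.4 and 7.43 CPM in CM and 0 and 2.56 in DM. Its 0 reads in DM library 1 allow up to 3 reads, and its log2 change of −2.55 (SE 0.73, adjusted p = 0.0407) includes that library. Gins1 read 2.43 and 5.96 CPM in DM+Met and was not called there (adjusted p = 0.321). Gins2 fell by 1.33 in DM and by 1.25 in DM+Met. Gins3 read 15.3 and 13.2 CPM in CM, 13.9 and 15.5 in DM, with 10.1 and 8.57 in DM+Met, so its CM and DM libraries overlapped (log2 change 0.05, 95% interval −0.85 to 0.94).

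Gins4 was the one member called higher in DM. It stood at 8.77 and 11.7 CPM in CM, 31.0 and 29.0 in DM, with 13.4 and 17.97 in DM+Met. The DM values were above all 4 others, and in 20.6% of all tested rows both DM+Met libraries lay below both DM libraries. Both DM+Met libraries of Gins4 lay above CM. The share of all rows lying above CM was not counted. The log2 change was 1.48 in DM (SE 0.37, adjusted p = 0.0238) and 0.57 in DM+Met (adjusted p = 0.334). Its DM call was lost when any 1 of the 6 libraries was left out. No other gene overlapped the end of Gins4 (chr8:23226616-23237659, minus strand) in the annotation used.

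The sliding clamp and its loader showed 2 of 5 members called lower in DM (background 9.07% of all tested rows). Pcna, the clamp that holds polymerases on DNA, stood at 159.9 and 85.0 CPM in CM, 51.8 and 54.8 in DM, with 60.9 and 57.1 in DM+Met. It fell by 1.12 (SE 0.28, adjusted p = 0.0247) and 0.97 (adjusted p = 0.0439), with CM libraries that differed from each other more than DM from DM+Met. Pseudogenes named Pcna-ps1 and Pcna-ps2 exist, and reads could be split with them. The loader subunits Rfc2, Rfc3 and Rfc4 were not called in either comparison with CM. Rfc3 read 25.2 and 26.1 CPM in CM, 12.1 and 14.8 in DM, with 9.55 and 12.3 in DM+Met (adjusted p = 0.129 and 0.0600). Rfc4 read 20.04 and 24.2 CPM in CM, 11.7 and 9.80 in DM, with 13.2 and 12.3 in DM+Met. Rfc2 read 51.1 and 55.7 CPM in CM against 30.5 and 44.1 in DM. For all 3 both DM libraries lay below both CM libraries, which 26.2% of all tested rows also showed. Rfc5 read 33.9 and 20.4 CPM in CM, 11.3 and 8.12 in DM, with 15.8 and 18.6 in DM+Met, and was called only in DM (log2 change −1.37, SE 0.40, adjusted p = 0.0433). In Rfc2, Rfc4 and Rfc5, exons of Lat2, Eif4a2 and Wsb2 on the other strand overlap at least part of the last 1000 bases.

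Of the polymerase genes, 2 of 8 were called lower in DM (background 9.07% of all tested rows), the lowest share among the roles. The median log2 change of the 8 was −0.65. Pole, the catalytic subunit of the leading-strand polymerase, stood at 24.5 and 18.2 CPM in CM, 2.96 and 6.97 in DM, with 6.70 and 8.57 in DM+Met. It fell by 1.98 in DM (SE 0.51, adjusted p = 0.0270), and the DM+Met change of −1.37 was not called (adjusted p = 0.102). Pold1, the catalytic subunit of the main lagging-strand polymerase, read 83.2 and 82.6 CPM in CM, 47.4 and 24.5 in DM, with 25.1 and 17.7 in DM+Met, and fell in both. Of the accessory subunits, Pole2 read 8.43 and 14.6 CPM in CM, 14.9 and 4.94 in DM, with 12.7 and 18.1 in DM+Met, with overlapping libraries throughout (log2 change −0.32 in DM, adjusted p = 0.732). Pold2 read 33.9 and 28.2 CPM in CM, 22.3 and 16.6 in DM, with 11.1 and 20.2 in DM+Met. It lay below CM in every dialyzed library (backgrounds 26.2% in DM and 28.7% in DM+Met) but was not called.

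The primase and polymerase alpha genes, whose complex lays down the primers of both strands, gave no call in DM. Pola1, the catalytic subunit, stood at 63.4 and 65.8 CPM in CM, 55.4 and 35.0 in DM, with 24.9 and 26.8 in DM+Met. It was the one member called lower in DM+Met (log2 change −1.29, SE 0.27, adjusted p = 0.0122) and not in DM (−0.54, adjusted p = 0.203). Pola2 read 22.4 and 31.8 CPM in CM, 36.0 and 25.4 in DM, with 21.4 and 20.5 in DM+Met, with CM and DM overlapping (log2 change 0.17, 95% interval −0.55 to 0.90). Prim1, the primase catalytic subunit, read 25.3 and 26.8 CPM in CM, 14.5 and 18.2 in DM, with 15.4 and 15.5 in DM+Met (log2 change −0.65 in DM, adjusted p = 0.216). Prim2 read 16.4 and 17.0 CPM in CM and 10.5 and 1.85 in DM, so its DM libraries differed widely and its log2 change of −1.63 had an SE of 0.65. Prim1 and Prim2 lay below CM in every dialyzed library (backgrounds 26.2% of all tested rows in DM and 28.7% in DM+Met).

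On the lagging strand, 4 of 5 members were called lower in DM (background 9.07% of all tested rows). Lig1, which seals Okazaki fragments, stood at 321 and 463 CPM in CM, 101 and 119.5 in DM, with 90.7 and 103 in DM+Met. It had the smallest adjusted p of the 45 (log2 change −1.80, SE 0.21, adjusted p = 0.000744 in DM, and −1.98, adjusted p = 0.000313 in DM+Met). Its 6 values fell into CM on one side and both dialyzed media on the other (backgrounds 26.2% in DM and 28.7% in DM+Met). Its mean CPM was 3.56-fold lower in DM and 4.05-fold lower in DM+Met. Fen1, which trims the flap of each fragment, fell by 1.52 in DM, and the end of the gene overlaps Gm10143 on the other strand. Of RPA, which coats single-stranded DNA, Rpa1 fell by 0.97 and Rpa2 by 1.21 in DM. Rpa3 read 9.56 and 3.07 CPM in CM, 4.996 and 4.06 in DM, with 3.27 and 5.54 in DM+Met, so its CM libraries spanned all the others (log2 change −0.25, 95% interval −1.64 to 1.14).

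All 4 genes of deoxynucleotide supply were called lower in both dialyzed media (backgrounds 9.07% of all tested rows in DM and 8.36% in DM+Met). Their median log2 change was the lowest of the roles in each (−1.84 in DM and −1.69 in DM+Met). Rrm2, the small subunit of ribonucleotide reductase whose amount is tied to S phase, stood at 84.2 and 67.4 CPM in CM, 8.36 and 13.9 in DM, with 8.88 and 11.2 in DM+Met. It was 6.82-fold lower in mean CPM in DM (log2 change −2.69, SE 0.36, adjusted p = 0.00164) and 7.56-fold lower in DM+Met (log2 change −2.80, adjusted p = 0.00105). Rrm1, the large subunit of the same enzyme, read 116 and 88.5 CPM in CM, 47.6 and 59.6 in DM, with 34.0 and 41.0 in DM+Met, and fell by 0.91 and 1.42. Tk1, which salvages thymidine, read 47.9 and 75.6 CPM in CM, 15.5 and 15.98 in DM, with 18.001 and 21.4 in DM+Met, and fell by 1.87 in DM (SE 0.32, adjusted p = 0.00475). Dut, which removes dUTP, read 202 and 193 CPM in CM, 66.7 and 47.0 in DM, with 44.1 and 70.0 in DM+Met. For each of the 4 genes, no dialyzed library reached the lower CM library (backgrounds 26.2% of all tested rows in DM and 28.7% in DM+Met). The difference in change between Rrm2 and Rrm1 was not tested.

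Of the genes that restore chromatin behind the fork, 3 of 4 were called lower in each medium (backgrounds 9.07% in DM and 8.36% in DM+Met). Chaf1a, the large subunit of the histone chaperone CAF-1, stood at 33.5 and 34.6 CPM in CM, 5.10 and 10.2 in DM, with 5.53 and 4.03 in DM+Met. It fell by 2.08 in DM (SE 0.47, adjusted p = 0.0161) and by 2.61 in DM+Met (adjusted p = 0.00536). Its partner Chaf1b read 17.2 and 7.94 CPM in CM, 2.04 and 2.83 in DM, with 4.19 and 2.18 in DM+Met. With a log2 change of −1.90 and an SE of 0.60 it was just short of the threshold in DM (adjusted p = 0.0546). Dnmt1, the maintenance methyltransferase, which uses S-adenosylmethionine made from methionine, read 152 and 139 CPM in CM, 69.6 and 56.7 in DM, with 49.2 and 57.9 in DM+Met. It fell by 1.20 (SE 0.21, adjusted p = 0.00476) and by 1.43 (adjusted p = 0.00169), and its DM and DM+Met libraries overlapped. Uhrf1, which brings DNMT1 to newly copied DNA, fell by 1.59 and 1.53.

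Among the fork and repair genes, Clspn, the adaptor through which the checkpoint kinase CHK1 is activated, stood at 54.2 and 72.4 CPM in CM, 18.1 and 12.9 in DM, with 8.79 and 4.79 in DM+Met. It fell by 1.97 in DM (SE 0.39, adjusted p = 0.00966) and by 3.08 in DM+Met (adjusted p = 0.000980), 9.32-fold in mean CPM and the greatest decrease of the 45 in DM+Met. Tipin, which protects stalled forks, fell by 1.19 in DM and was not called in DM+Met (adjusted p = 0.0668). Ung, which excises uracil from DNA, read 21.8 and 39.7 CPM in CM, 17.8 and 21.99 in DM, with 15.6 and 12.9 in DM+Met. Its DM libraries overlapped CM, and it was not called in either comparison (log2 change −0.55 in DM, adjusted p = 0.353).

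**Figure D3:**
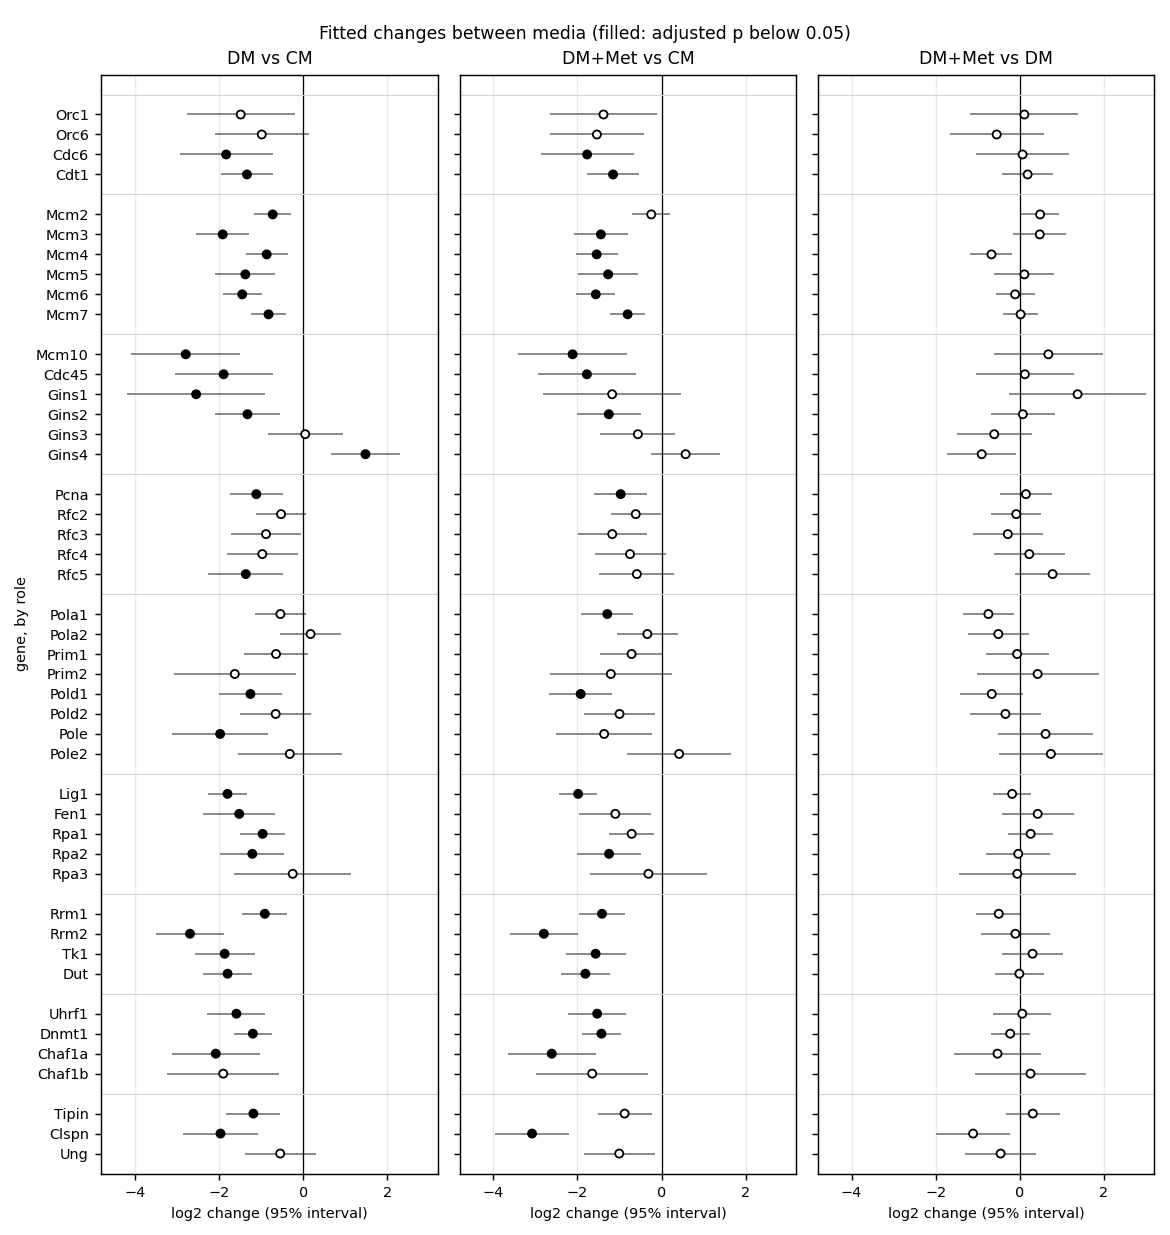
Fitted log2 change of each of the 45 genes (horizontal axis, with 95% intervals as bars) for DM vs CM, DM+Met vs CM and DM+Met vs DM, grouped by role (vertical axis), with filled points for an adjusted p below 0.05. The left panel has 30 filled points, of which Gins4 lies to the right of 0, the middle panel has 23, all to the left, and the right panel has none.

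In DM+Met, 23 of the 45 members were called lower than in CM (51.1%; background 8.36%) and 0 higher (background 6.92%; 0 also by limma-voom on the recovered reads, and 34 members had an unadjusted p under 0.05 in either direction). Both DM+Met libraries lay below both CM libraries for 42 members (93.3%; background 28.7%). The median log2 change was −1.26, against 0.06 over all tested rows, and the summed level of 1224 and 1299 CPM was 2.49-fold lower than in CM. By role, calls were made for 2 of 4 licensing factors, 5 of 6 MCM subunits, 3 of 6 activators, 1 of 5 clamp and loader genes, 2 of 8 polymerase genes, 2 of 5 lagging-strand genes, 4 of 4 nucleotide genes, 3 of 4 chromatin genes and 1 of 3 fork and repair genes. The count was 4 without DM+Met library 1, 6 without DM+Met library 2, 9 without CM library 1, 10 without CM library 2, and 18 without either DM library. Clspn, Lig1 and Rrm2 were called under every left-out library and every other alternative. The comparison shares its CM libraries with DM vs CM. When libraries were scaled to their total reads, the median of all rows moved to 0.41, the median of the members was −0.88, and 14 were called lower.

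Between DM+Met and DM no member was called in either direction (backgrounds 0.0157% lower and 0.0392% higher, 7 rows of 12770), by limma or by limma-voom, and 5 members had an unadjusted p under 0.05 against 1238 of all rows. The median log2 change of the members was 0.02, against 0.01 for all rows. Both DM+Met libraries lay below both DM libraries for 9 members (9 of 45; background 20.6%) and above both for 7 (15.6%; background 20.4%), so the members' shares were near or below those of all rows. The 5 members at an unadjusted p under 0.05 were Mcm4, Clspn, Pola1, Gins4 and Mcm2. Mcm4, a further MCM subunit, read 116 and 102 CPM in CM, 56.5 and 61.9 in DM, with 32.1 and 41.9 in DM+Met (log2 change −0.67 from DM to DM+Met, SE 0.22, adjusted p = 0.381). The changes of the others were −1.11 for Clspn (adjusted p = 0.412), −0.75 for Pola1 (adjusted p = 0.421), −0.91 for Gins4 (adjusted p = 0.462) and 0.48 for Mcm2 (adjusted p = 0.476). The absence of calls does not show that the media gave equal levels, since the 95% interval lay within −1 to 1 for only 17 members. It was −0.39 to 0.43 for Mcm7, −0.64 to 0.28 for Lig1, −0.92 to 0.71 for Rrm2 and −0.26 to 3.01 for Gins1.

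**Figure D4:**
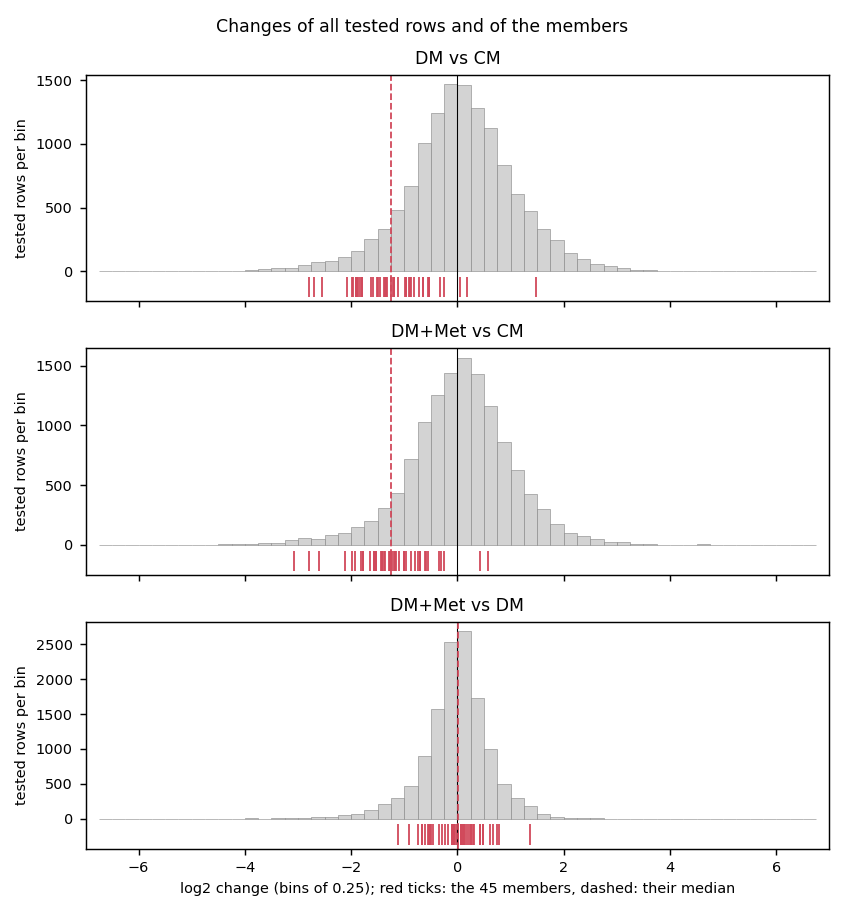
Number of tested rows per bin of 0.25 in log2 change (grey bars) for DM vs CM, DM+Met vs CM and DM+Met vs DM, with the 45 members as red ticks under the bars and their median as a dashed line. The members' median stands at −1.26 in both comparisons with CM, left of the peak of all rows, and at 0.02 in DM+Met vs DM.

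Replication genes outside the 45 moved less as a list. The 45 and the lists were chosen with earlier results of these data known, so this is a description and no test. Of 30 tested genes of a further replication list, which held the other ORC subunits, firing kinases and accessory factors, 5 were called lower in DM (Dna2, Cdc7, Dbf4, Rnaseh2a and Topbp1) and 1 higher (Mcmbp), with a median log2 change of −0.43. Cdc7 and Dbf4, the kinase that fires origins and its activating subunit, fell by 1.71 and 1.41. Mcmbp, which binds MCM subunits, rose by 0.97. Dna2, a nuclease of flap removal, had 0 and 6 reads in DM against 90 and 88 in CM. In DM+Met, 3 of the 30 were called lower and 1 higher (median −0.45), near or below the backgrounds of 8.36% and 6.92%. In DM the backgrounds were 9.07% lower and 7.80% higher. The summed level of that list was 1478 and 1471 CPM in CM, 1239.7 and 1336 in DM, with 1389.8 and 1289.5 in DM+Met.

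Of 19 further genes of nucleotide supply and S-phase chromatin, 8 were called lower in DM (median −0.70), and 7 lower and 1 higher in DM+Met (median −0.71). Over all tested rows, 9.07% were called lower in DM and 8.36% in DM+Met, with 6.92% higher in DM+Met. Among those called lower in DM were Esco2, which establishes sister chromatid cohesion (log2 change −2.71), and Dck, which salvages deoxycytidine (−1.66). The gene called higher in DM+Met was Rrm2b (1.65), a small subunit of ribonucleotide reductase used outside S phase. Of 21 E2F and G1/S regulators, 7 were called lower in DM (median −0.47), led by Cks1b (−3.39), E2f8 (−2.75) and E2f2 (−2.42), and 6 in DM+Met (median −0.52).

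The G2/M list changed further than the replication genes. Of its 24 genes, 23 were called lower in DM (background 9.07%) and 23 in DM+Met (background 8.36%), with medians of −2.84 and −3.27. Ccnb1, Aurkb and Ttk, a cyclin and kinases of mitosis, had the greatest decreases in DM (−4.55, −4.13 and −4.09). Its summed level was 3520.1 and 3524 CPM in CM, 534 and 529.7 in DM, with 325 and 388 in DM+Met, 6.62-fold and 9.89-fold lower, against 2.38-fold and 2.49-fold for the 45 members. The ratio of the G2/M sum to the members' sum was 1.11 and 1.13 in CM, 0.400 and 0.403 in DM, with 0.265 and 0.298 in DM+Met, and the 3 media did not overlap in it. No test of that difference was run. By limma, none of these 4 lists had a gene called between DM+Met and DM.

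**Figure D5:**
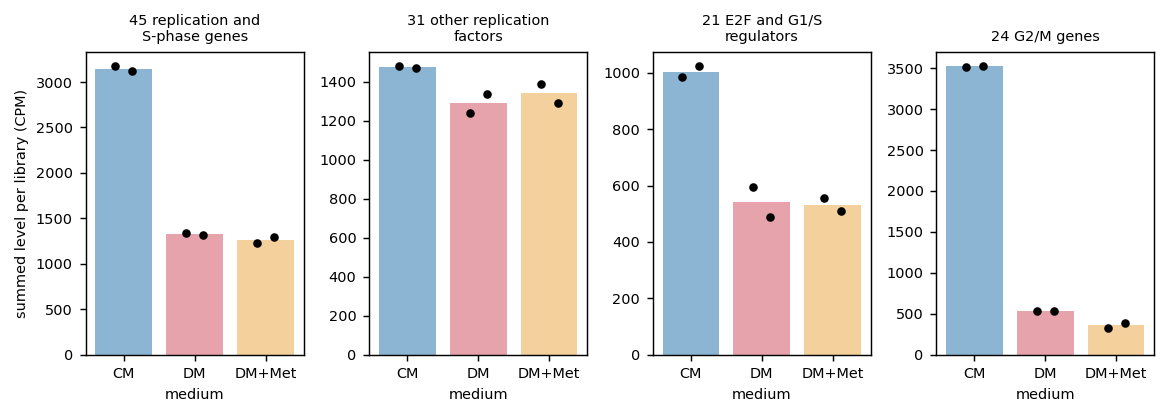
Summed level in CPM (vertical axis, from 0) of the 45 replication and S-phase genes and of 3 further lists in each medium, with bars for the mean of 2 libraries and points for the libraries. The members fell from 3174 and 3122 CPM in CM to 1336 and 1313 in DM, and the G2/M list from 3520.1 and 3524 to 534 and 529.7.

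Among the 37 members with a promoter window, 11 of 16 with an E2F word and 13 of 21 without one were called lower in DM (background 9.07%). Their median log2 changes were −1.36 and −1.12. Members with the word ranged from −1.97 (Clspn) to 0.05 (Gins3), and members without it from −2.79 (Mcm10) to 0.17 (Pola2), so the groups overlapped. The 45 genes lay on 15 chromosomes, with at most 6 on one. Of the genes with the most stable calls, Rrm2 lies at chr12:24708241-24714146 (plus strand), Lig1 at chr7:13277283-13311433 (plus), Mcm6 at chr1:128331590-128359664 (minus) and Clspn at chr4:126556935-126593903 (plus) in GENCODE M21 on GRCm38. Reads of a 3′ kit come from the end of a transcript, and for Mcm7, Gins2, Rfc2, Rfc4, Rfc5 and Fen1 an exon of another gene lies within the last 1000 bases of the gene. Whether the counting used strand is not given in the sources used here, so those reads cannot be told apart.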

How the data were processed

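RNA from 6 libraries (CM, DM and DM+Met, 2 each) was made into 3′-end QuantSeq libraries from 500 ng of total RNA. The deposited values are log2 values per gene, and the submitters' processing notes name Bowtie2, bedtools and mm10. Figure legends of the study name TMM with CPM as the normalization, and the counting rule is not given in the sources used here. After reversing log2(x + 1) the values of each library were multiples of 1 step, taken as 1 read, so they were read as log2(CPM + 1), and at least 99.8% of the values up to 300 reads lay within 0.1 of a whole read. Intervals of log2 changes rest on the spread between libraries, as the p-values do. Floors of 3 reads cover counting error only.

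The 3 media entered one fit in limma 3.58.1 (R 4.3.3) on the deposited log2 values, with an intensity trend (two-sided, Benjamini-Hochberg over 12770 rows, threshold 0.05). Rows needed 0.946 CPM, or 10 reads at the median scaled depth, in 2 libraries and 15 reads in all. Changes on the log2(CPM + 1) scale understate the change of low genes. The steps were also run on simulated data with the same dispersion for every row, which cannot show how far the calls here hold. Library numbers appear in file names only, and deviations of same-numbered libraries correlated at −0.02, 0.00 and −0.03. Libraries were therefore not paired in the main fit, although such correlations cannot exclude a shared origin. The 12 alternatives covered scaling, filters, pseudocounts of 0.1 and 5, limma-voom, the trend, the prior, the media fitted and a replicate block, beside leaving out each library.

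The members and lists were chosen with earlier results of these data known. Values per library are given for the 10 called members with the greatest change and no overlap in DM vs CM, members not called, the greatest and smallest change of each role, the 5 lowest p between DM+Met and DM, and up to 3 genes of each other list. Values of other genes were given after they had been seen. Gene positions are from GENCODE M21 and promoters from RefSeq, both on GRCm38.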

Additional observations from a re-analysis of the deposited data

How the results depend on the processing

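With 2 libraries per medium, calls depended on the shared spread. The members called lower in DM vs CM numbered 29, and 19 with no filter on low values, 14 without the intensity trend and 11 with only the 2 media in the fit, and 5 to 11 with 1 library left out. In DM+Met vs CM they numbered 23, and 14 with library totals, 13 without the trend, and 4 to 18 with 1 library left out. The members' median was −1.26 in DM vs CM, −1.10 with library totals without Rn45s, −1.10 with a pseudocount of 5 and −1.40 to −1.09 with a library left out. In DM+Met vs CM it was −1.26, −0.88 with library totals, −1.14 with totals without Rn45s, −1.05 with a pseudocount of 5 and −1.48 to −1.16 with a library left out. In DM+Met vs DM it was 0.02, and 0.38 with library totals, where the median of all rows was 0.34. With totals without Rn45s it was −0.018, where the median of all rows was −0.021. The cause was not tested. No member was called between DM+Met and DM under any setting.

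With the replicate block, 26 members were lower in DM vs CM, 22 in DM+Met vs CM and 0 called between DM+Met and DM. Whether same-numbered libraries share an origin is not given by the labels. Leaving out single libraries turned the sign of Gins3 (−0.052 to 0.144), Pola2 (−0.0685 to 0.416), Pole2 (−1.03 to 0.39) and Rpa3 (−0.94 to 0.44) in DM vs CM and of Rpa3 (−0.9995 to 0.38) in DM+Met vs CM, none of them called. Library totals turned Mcm2 to 0.15, Pola2 to 0.041 and Rpa3 to 0.012 in DM+Met vs CM. At depths of 8504742 to 12377285 reads, genes with few reads had SEs up to 0.73, which limits what could be called.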
